A study of Salmo salar with 59 samples.

Results

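Testis RNA of 6 male Atlantic salmon in puberty was compared by how far the gonad had grown. The gonadosomatic index (GSI) is gonad weight as a percent of body weight. The late pubertal group held the 3 fish with a GSI of 1.9% or more (fish 245, 211 and 202), and the early pubertal group held the 3 fish with a GSI of 0.23 to 0.75% (fish 184, 190 and 213). These 6 arrays are part of 59 arrays of testis, pituitary and adipose tissue, and 14 immature testes were used for reference levels without a test. All fish were farmed post-smolts held in brackish water and sampled after 18 weeks. Late fish 245 and early fish 184 and 190 had been under continuous light (light group A), and late fish 211 and 202 and early fish 213 under increasing light (light group B), with the same feed. The immature fish came from light groups A, B, D and E, and D and E had decreasing light, E also a low-fat diet. The groups follow GSI, not the stage in the sample labels: these labels give stage IV to late fish 245 and 211 and to early fish 184 and 190, stage V to late fish 202 and stage III to early fish 213. By the study's histology all 6 testes had passed beyond type A spermatogonia. The most advanced cells there were spermatozoa in late fish 245, 211 and 202. In early fish 184 and 190 they were spermatids, and in early fish 213 spermatocytes. The predominant germ cells were spermatocytes in all but early fish 184, where they were type B spermatogonia. Whole tissue pieces were extracted, 1 piece and 1 array per fish.

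In the testis of salmon, germ cells develop inside cysts formed by Sertoli cells, which nurse them and produce factors such as anti-Müllerian hormone. Spermatogonia divide by mitosis, enter meiosis as spermatocytes, and become spermatids, which condense their chromatin and grow a flagellum built on a microtubule axoneme like that of motile cilia. Leydig cells between the tubules make androgens. Because RNA came from whole tissue, fewer cells of a type and less RNA per cell cannot be told apart in any of the results.

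Levels are log2 of the spot signal relative to the 75th percentile of its own array, so 0 is the 75th percentile, and levels are set only within a probe. The signal at this percentile was 196 to 340 on late arrays and 153 to 329 on early arrays (exact permutation test, two-sided, p = 0.9). From 71.7% to 86.6% of probes were well above background on late arrays, and 65.6% to 75.8% on early arrays (p = 0.4 in the same exact test; the smallest p that 3 against 3 allows is 0.1). Over the 32492 probes tested, Pearson correlations were 0.949 to 0.975 among late arrays, 0.947 to 0.955 among early arrays and 0.863 to 0.948 between the groups. The tissue label was borne out by germ cell and gonadal somatic markers. All 4 germ cell markers with a probe (ddx4, piwil1, dazl and sycp3) were well above background on all 6 arrays, as were amh and inha of the Sertoli cell and star, cyp17a1 and hsd3b1 of the Leydig cell. Of the pituitary hormones, fshb averaged 1.43 in late and 0.12 in early testes. The mean of lhb was -3.41 in late and -2.26 in early testes, and both genes were above background on all 6 arrays. The adipose markers fabp4, plin1 and cidec were also well above background on all 6 arrays. Of these, fabp4 averaged 6.88 in late and 7.24 in early testes, above its immature median of 3.845. For plin1 and cidec both group means lay below the immature median. Whether the pieces held adipose tissue was not tested.

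A probe was called where limma's adjusted p was under 0.05 and the log2 difference, late minus early, exceeded 0.8 in size. In late testes 1653 probes were higher (5.09% of those tested) and 287 were lower (0.883%), together 5.97%. At an unadjusted p under 0.05 with the same limit, 16.1% were higher and 9.07% lower. Rises were also larger: the median called rise was 2.54 and the median called fall -1.67 on the log2 scale, and 606 rises exceeded 8-fold, against 8 falls. For all 1940 called probes the values of the 3 late fish lay wholly on one side of those of the early fish, though 6 of these probes lacked a value for at least 1 fish. Whether called or not, 20.3% of all probes had all late fish above and 14.1% had all late fish below the early fish. Dim probes moved more often: over the 16246 dimmer probes the median difference was 0.44 and 948 probes rose and 84 fell, while over the 16246 brighter probes it was -0.10 and 705 rose and 203 fell. In 289 of the called rises no early array was well above background, so that only a lower limit of the fold, taken from the lowest signal well above background, can be given there. In 10 of the called falls no late array was well above background. Both kinds passed the filter only through the group where they were high. Their p-values come from readings that include signal near background, not from the lower limit.

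**Figure D1:**
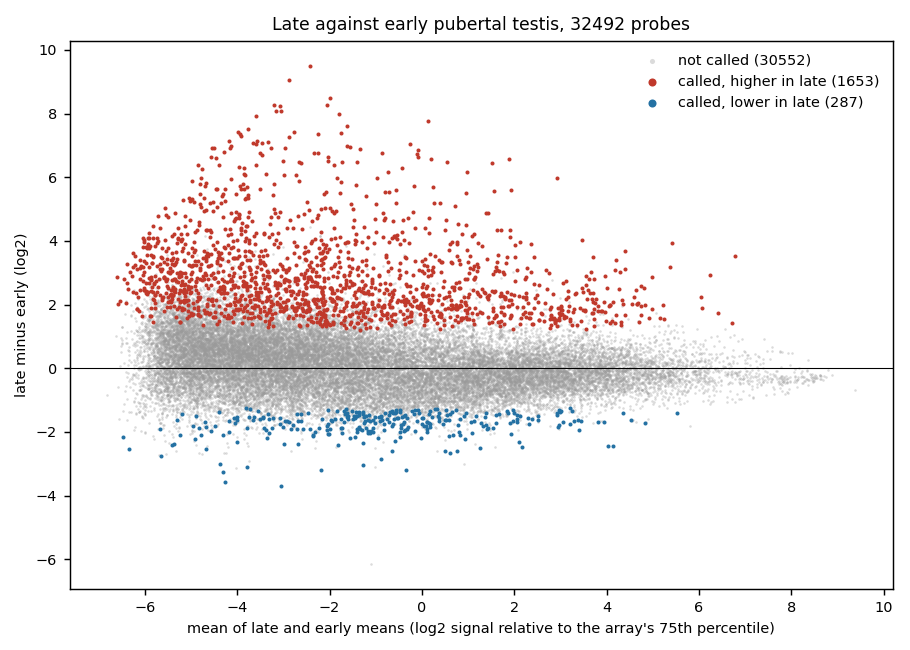
Each point is 1 of the 32492 probes tested, with its mean level (log2 signal relative to the array's 75th percentile) on the x axis and its difference, late minus early, on the y axis (log2). The 1653 rises (red) reach far beyond the 287 falls (blue), which reach no lower than -3.71.

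How many probes fell depends on how arrays are set against each other. The median difference of all probes was 0.14 with the 75th percentile, 0.03 with normexp background correction, -0.07 after quantile normalization and -0.27 with arrays scaled to their median. Rises accounted for 85.2% of the calls with the 75th percentile, 59.9% with normexp, 70% with quantile normalization and 49.2% with median scaling. Below, a difference is therefore read against the median of all probes, 0.14. Calls also depended on single fish, in fits that then had 5 arrays. There were 689 calls without late fish 245, 794 without late fish 202, 1194 without late fish 211, 1059 without early fish 184, 1136 without early fish 190 and 1680 without early fish 213. Called falls, 287 with all fish, numbered 11 to 33 without 245, 202, 184 or 190, 90 without 211 and 272 without 213. Fish 184 was scanned apart from the other 5, so that a fit with scan as a block equals the fit without it. Both light groups had late and early fish. Group A held 1 late fish and 2 early fish, and group B 2 late fish and 1 early fish. Called probes were chosen on these same fish, and none overlapped between late and early. Their direction within a light group was therefore fixed beforehand and tells nothing about light. With light group as a block 858 probes rose and 15 fell.

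Genes of the cilium and flagellum rose in number and size more than any other list drawn up here. Of 99 probes tested, 62 were called higher in late testes (62.6%, against 5.09% of all probes) and none lower by any of limma's adjusted or unadjusted p. At an unadjusted p under 0.05, 81 were higher and 0 lower, against 16.1% and 9.07% of all probes. Their median difference was 1.74 (0.14 over all probes tested), and 93 of 99 differences were above 0, against 56.3% of all probes. The median level of the list was 2.86, 2.87 and 3.27 in late fish 245, 211 and 202, and 1.24, 1.14 and 1.56 in early fish 184, 190 and 213. Early fish thus stood between late fish and the 14 immature testes, whose list medians ran from -0.58 to 0.03. The count depended on single fish, at 22 calls without late fish 245, 29 without 202, 35 without 211, 31 without early fish 190, 33 without 184 and 50 without 213, while the median difference stayed between 1.60 and 1.92.

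The transcription factor foxj1a, the regulator of motile cilium genes in vertebrates, stood first in this list. It read -0.97, -1.42 and -0.01 in late fish 245, 211 and 202, and -6.02, -6.45 and -8.10 in early fish 184, 190 and 213, where no array was well above background. Late testes were therefore at least 43.2-fold higher. The adjusted p of 0.00216 (limma) belongs to the log2 difference as read, 6.06, and the probe was tested only because of its late arrays. In the immature testes, with a median of -5.95, it was well above background in 8 of 14.

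Axonemal dyneins, the motors of the flagellum, were also among the called genes. The dynein intermediate chain dnai2 read 1.93, 1.11 and 1.42 in late fish 245, 211 and 202, and -2.19, -1.35 and -1.24 in early fish 184, 190 and 213. The late group was 8.46-fold higher (log2 difference 3.08 ± 0.39, SE, adjusted p = 0.00518, limma, n = 3 each), with no overlap. The heavy chains dnah3 and dnah1 rose by 4.06 ± 0.50 (adjusted p = 0.0046) and 2.85 ± 0.33 (adjusted p = 0.00357) in the same limma fit. Not every heavy chain moved this way: dnah9 was at 0.42, 0.74 and -0.38 in late fish 245, 211 and 202, and 1.06, 0.87 and 0.34 in early fish 184, 190 and 213, and the groups overlapped (adjusted p = 0.45).

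Of the central pair and other axonemal proteins several were called. The axonemal protein cfap43 read 2.13, 2.01 and 2.78 in late fish 245, 211 and 202, and -0.65, -1.77 and -0.57 in early fish 184, 190 and 213, a 9.88-fold rise (log2 3.31 ± 0.43, SE, adjusted p = 0.0057, limma). The central apparatus protein cfap54 rose by 3.37 ± 0.40 (adjusted p = 0.00407), hydin, of the same structure, by 3.15 ± 0.50 (adjusted p = 0.012) and spef2, which sperm flagella require in mouse, by 2.75 ± 0.36 (adjusted p = 0.00572). Others were not called, such as spef1 (0.86, adjusted p = 0.151), ccdc39 (1.28, adjusted p = 0.0591), ccdc40 (0.80, adjusted p = 0.409) and cfap263 (-0.45, adjusted p = 0.424). The calls held in all 6 fits that leave out 1 fish for cfap43, cfap54, spef2, dnai2, dnah1, dnah3 and foxj1a, and in 4 of 6 for hydin. The adenylate kinase ak7 of the axoneme averaged 1.21 in late and -1.16 in early testes, a rise of 2.36 ± 0.41 (adjusted p = 0.0168) that was called in 2 of these 6 fits.

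Intraflagellar transport carries building material along the growing axoneme, and its genes were called in part. The transport protein ift122 read 3.21, 3.51 and 3.44 in late fish 245, 211 and 202, and 1.84, 1.70 and 2.13 in early fish 184, 190 and 213 (log2 1.49 ± 0.30, SE, adjusted p = 0.0303, limma), a call that held without 1 of the 6 fish but not without any of the other 5. The groups did not overlap. The genes ift20 (2.23, adjusted p = 0.0369), ift172 (1.68, adjusted p = 0.0329), ift27 (1.67, adjusted p = 0.0213) and ift52 (1.43, adjusted p = 0.0476) were also called, each in 1 of the 6 fits without 1 fish. Other transport genes were not called, such as ift88 at 1.12 (adjusted p = 0.0639), ift74 at 0.30 and ift57 at -0.07.

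**Figure D2:**
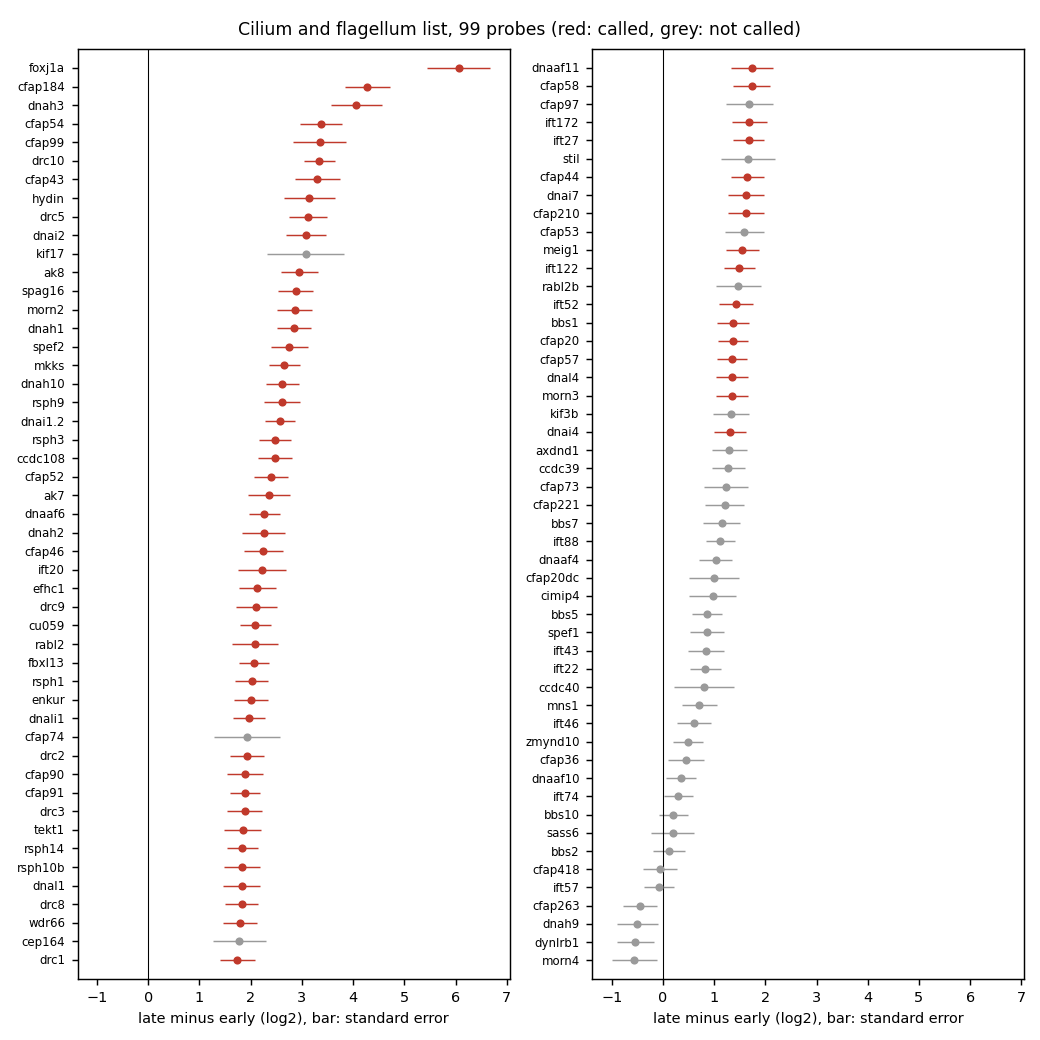
Difference between late and early testes (log2, late minus early) for each of the 99 probes of the cilium and flagellum list, with its standard error from limma as a bar, in 2 columns from the highest to the lowest. The 62 called probes (red) run from dnai4 at 1.31 to foxj1a at 6.06, and the 6 differences below 0 lie at the foot of the second column.

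The largest rises were of genes of sperm and flagellum and of several genes with no described role here. The 12 largest called rises among named probes were izumo1, kif21a, ppp1r36, tex36, noxred1, LOC106568914 (a serine/arginine repetitive matrix protein by the study's annotation), tulp4b, spata16, foxj1a, LOC106604797 (actin-3-like), LOC106575912 (stress response protein NST1-like) and dyrk4. The sperm surface protein izumo1, which binds the egg in mouse, read -0.18, -1.44 and -0.18 in late fish 245, 211 and 202, and -8.07, -7.01 and -8.15 in early fish 184, 190 and 213. No early array was well above background, and the late group was at least 62.6-fold higher. On the same terms tex36 was at least 69.6-fold, kif21a at least 85-fold and tulp4b at least 30.1-fold higher. These genes were tested only because of their late arrays. The adjusted p of izumo1, 0.00121 (limma), belongs to its difference as read and not to the lower limit. Spermatogenesis associated spata16, needed to form the acrosome in mouse and human, read 0.31, -0.61 and 0.43 in late fish 245, 211 and 202, and -5.00, -6.06 and -7.00 in early fish 184, 190 and 213, of which 1 array was well above background (log2 6.06 ± 0.55, SE, adjusted p = 0.00158). In immature testes spata16 lay between -5.64 and -3.53, with a median of -3.90, a median above all 3 early fish.

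Among genes measured well above background on all 6 arrays, chosen after their values were seen, the histone H1.5-like gene LOC106576673 had one of the largest rises. Linker histones of this family bind DNA between nucleosomes. It read 4.40, 4.43 and 5.40 in late fish 245, 211 and 202, and -0.29, -0.97 and -1.35 in early fish 184, 190 and 213, a 48.8-fold rise (log2 5.61 ± 0.43, SE, adjusted p = 0.00121, limma) that was called in all 17 alternatives that tested it. The early mean, -0.87, lay within the immature range of -1.70 to -0.56. The annotated actin-3-like gene rose by 5.97 ± 0.48 and LOC106575912 by 5.96 ± 0.53, the last to 5.90 in late testes against -0.07 in early testes. The repeat protein ttc6, named after a structural motif, rose by 5.60 ± 0.45 and stpg1, named after sperm-tail repeats, by 5.54 ± 0.42. All 4 were called in each fit without 1 fish.

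Meiotic genes rose in part. Of 31 probes tested 8 were called higher (25.8%, against 5.09% of all probes) and none lower. At an unadjusted p under 0.05, 17 were higher and 0 lower, against 16.1% and 9.07% of all probes. The median difference was 1.09, against 0.14 for all probes. The median level of the list was 2.365, 2.658 and 2.354 in late fish 245, 211 and 202. In early fish 184, 190 and 213 it was 0.961, 1.788 and 2.353, so that fish 213 stood close to the late fish. Called were mcmdc2, sycp3, msh4, mei4, spo11, sycp2, syce3 and mei1. The synaptonemal complex protein sycp3, part of the chromosome axis, read 4.89, 4.90 and 5.23 in late fish 245, 211 and 202, and 1.86, 2.12 and 2.35 in early fish 184, 190 and 213. All 3 late values lay above all early values, and the rise was 7.46-fold (log2 2.90 ± 0.31, SE, adjusted p = 0.0025, limma). The early values lay above all immature testes, which ran from 0.13 to 0.73. Its partner in the chromosome axis, sycp2, read 6.02, 6.25 and 6.37 in late fish 245, 211 and 202, and 4.42, 3.84 and 4.47 in early fish 184, 190 and 213 (log2 1.97 ± 0.32, adjusted p = 0.0137).

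Genes of recombination were among those called. The enzyme spo11, which makes the double-strand breaks that start meiotic recombination, read 3.15, 3.23 and 3.94 in late fish 245, 211 and 202, and 0.89, 0.64 and 1.68 in early fish 184, 190 and 213 (5.18-fold, log2 2.37 ± 0.40, SE, adjusted p = 0.0157, limma). The crossover factor msh4 read 1.35, 1.44 and 1.25 in late fish 245, 211 and 202, and -1.07, -1.21 and -1.21 in early fish 184, 190 and 213 (5.70-fold, log2 2.51 ± 0.28, adjusted p = 0.00324). In both genes the groups were far apart beside their spread. For mcmdc2, which mouse spermatocytes need for recombination, the rise was 3.34 ± 0.35 (adjusted p = 0.00238), and for mei4, which acts with spo11, it was 2.46 ± 0.54 (adjusted p = 0.0414). Calls in the list numbered 3 without late fish 245, 3 without 202, 4 without 211, 4 without early fish 184, 5 without 190 and 10 without 213, and msh4, sycp3 and mcmdc2 were called in each of these fits. Of the other called genes, sycp2 was called in 3 of these 6 fits, spo11 in 2, and mei4, syce3 and mei1 in 1 each.

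Of 82 cell cycle probes 3 were called higher (ccna1, cks2 and cdc25b) and 1 lower (ccnd2), or 3.66% and 1.22%, near the 5.09% and 0.883% of all probes, with a median of 0.29 that became -0.12 with median scaling, where that of all probes was -0.27. The cyclin ccna1, which in mouse serves male meiosis, read 3.20, 3.04 and 3.40 in late fish 245, 211 and 202, and -0.56, -0.31 and -0.99 in early fish 184, 190 and 213, a 14.2-fold rise (log2 3.83 ± 0.32, SE, adjusted p = 0.00133, limma), with early fish within the immature range of -1.47 to 0.16. The kinase subunit cks2, which meiosis also needs in mouse, averaged 5.40 in late and 3.26 in early testes (log2 2.14 ± 0.29, adjusted p = 0.00616). Both were called in every fit without 1 fish, and cdc25b in none of these 6 fits. The G1 cyclin ccnd2 averaged -0.29 in late and 1.35 in early testes (log2 -1.64 ± 0.37, adjusted p = 0.0459), and this call held without 1 of the 6 fish. Mitotic cyclin ccnb1 averaged 5.51 in late and 4.89 in early testes (adjusted p = 0.348) and topoisomerase top2a 6.59 and 6.15 in late and early testes (adjusted p = 0.361), and both were above every immature testis in all 6 fish.

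In the list of spermatogonia and germ line genes none of 15 probes was called, by limma's adjusted p. At an unadjusted p under 0.05, 3 were higher and 1 lower, against 16.1% and 9.07% of all probes. The RNA helicase ddx4 (vasa), a germ cell marker, read 7.70, 7.92 and 7.65 in late fish 245, 211 and 202, and 8.16, 8.22 and 7.65 in early fish 184, 190 and 213 (log2 -0.25 ± 0.31, SE, adjusted p = 0.636). Late and early fish overlapped, and all 6 were above the immature range of 6.34 to 7.02. The piRNA pathway protein piwil1 averaged 2.41 in late and 3.12 in early testes and overlapped too (adjusted p = 0.319). Of 26 probes of spermatids and spermiogenesis 6 were called higher (izumo1, tex36, spata16, tsnaxip1, spata4 and spata17), or 23.1% against 5.09% of all probes, and 1 lower (h1m), or 3.85% against 0.883%. The median was 0.31, and with median scaling it was -0.10, with 4 probes called higher and 3 lower. Of all 32492 probes, 1287 were called higher and 1328 lower with that scaling.

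**Figure D3:**
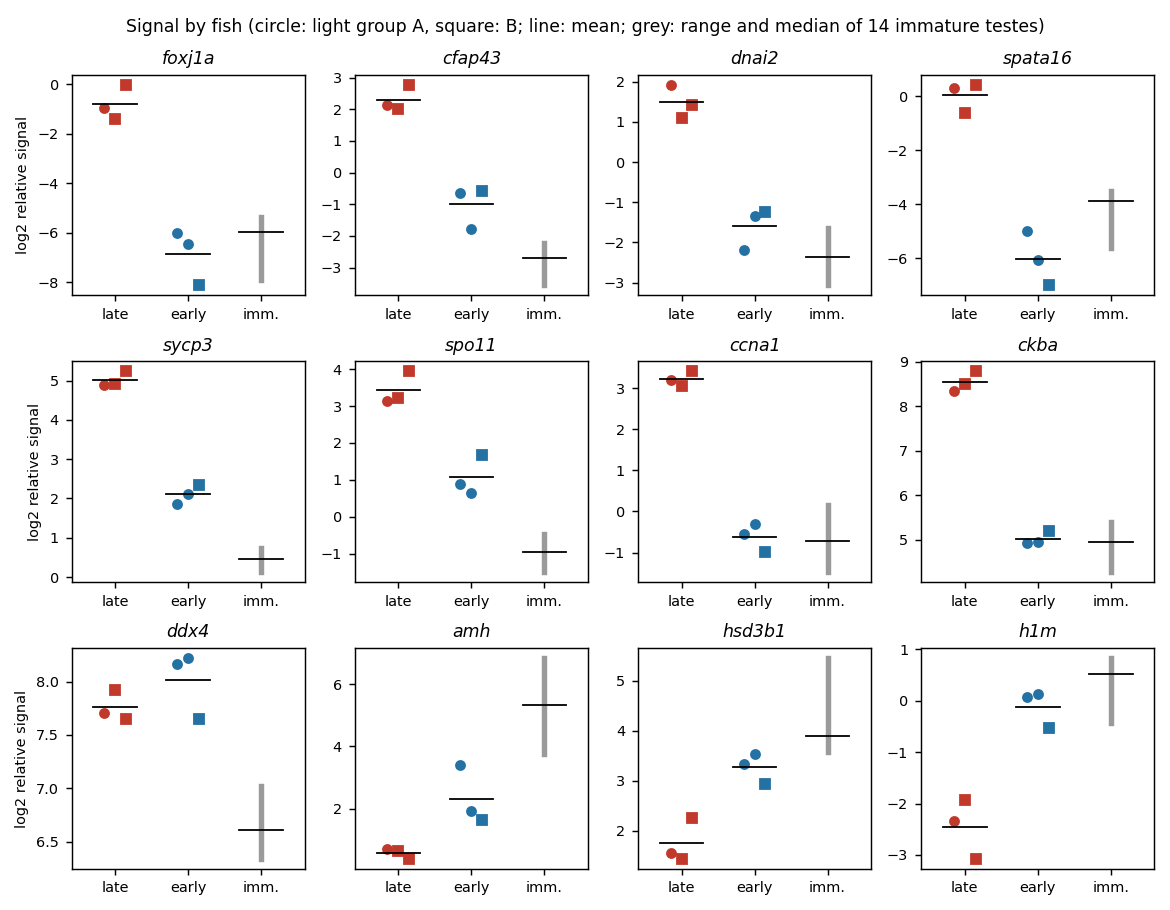
Level of 12 genes (log2 signal relative to the array's 75th percentile) in late testes, early testes and immature testes. Each point is 1 fish (circles light group A, squares light group B), black lines are means (for immature testes the median) and the grey bar is the range of 14 immature testes. Late fish stand clear above early fish for foxj1a to ckba, overlap them for ddx4, and lie below them for amh, hsd3b1 and h1m.

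Enzymes of energy supply moved in both directions. Of 35 probes 5 were called higher (14.3%, against 5.09% of all probes) and 4 lower (11.4%, against 0.883%), with a median of -0.34. The brain-type creatine kinase ckba, which regenerates ATP in sperm and brain, read 8.34, 8.50 and 8.79 in late fish 245, 211 and 202, and 4.93, 4.96 and 5.19 in early fish 184, 190 and 213. It rose 11.4-fold (log2 3.52 ± 0.30, SE, adjusted p = 0.00135, limma, called in all 17 alternatives), while early fish were within the immature range of 4.28 to 5.40. Enolase eno4, which mouse sperm flagella contain, rose by 3.04 ± 0.45 (adjusted p = 0.00956), and the adenylate kinases ak8 and ak9, known from cilia, by 2.95 ± 0.36 and 2.99 ± 0.33. The fifth was ak7, and ak7 and ak8 are also counted in the cilium list. The mitochondrial creatine kinase ckmt2 averaged 0.60 in late and 2.48 in early testes (adjusted p = 0.0402), the triose phosphate isomerase tpi1b 3.66 and 5.06 in late and early testes (adjusted p = 0.0409), and slc2a11a, a sugar transporter, -4.22 in late and -2.68 in early testes (adjusted p = 0.0286). These 3 calls were lost without at least 5 of the 6 fish.

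Of 14 probes of the Sertoli cell list 1 was called lower (7.14%, against 0.883% of all probes) and none higher. The called probe, foxl2l, is not of a Sertoli cell gene. At an unadjusted p under 0.05, 7 were lower and 0 higher, against 9.07% and 16.1% of all probes. With median scaling 6 were called lower, as were 1328 of all 32492 probes. The median difference was -1.10 against 0.14 for all probes. Of the differences 11 were below 0 and 3 above, while 56.3% of all probes were above 0. For 7 probes all late fish lay below all early fish (50%, against 14.1% of all probes). The median level of the list was -2.26, -2.61 and -2.13 in late fish 245, 211 and 202, and -2.03, -0.53 and -0.65 in early fish 184, 190 and 213, so that fish 184 stood close to the late fish. Anti-Müllerian hormone amh read 0.72, 0.64 and 0.39 in late fish 245, 211 and 202, and 3.41, 1.92 and 1.63 in early fish 184, 190 and 213 (log2 -1.74 ± 0.49, SE, adjusted p = 0.0801, limma). The groups did not overlap, fish 184 stood highest, and every pubertal fish was below the immature range of 3.77 to 6.84. The inhibin alpha subunit inha, which restrains follicle-stimulating hormone, averaged 4.17 in late and 5.36 in early testes (adjusted p = 0.0856), the activin/inhibin beta subunit inhbab -3.61 and -1.63 in late and early testes (adjusted p = 0.0632), and the transcription factor gata4 2.17 in late and 3.46 in early testes (adjusted p = 0.0709). The forkhead gene foxl2l marks germ cells on the way to oocytes in zebrafish (log2 -1.64 ± 0.35, adjusted p = 0.037).

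Leydig cell markers differed among themselves. Of 22 probes of steroid hormone synthesis 1 was called lower (4.55%, against 0.883% of all probes) and none higher (against 5.09%), with a median of -0.46. At an unadjusted p under 0.05, 6 were lower and 2 higher, against 9.07% and 16.1% of all probes. The called gene hsd3b1, whose enzyme converts pregnenolone to progesterone, read 1.56, 1.44 and 2.25 in late fish 245, 211 and 202, and 3.33, 3.53 and 2.94 in early fish 184, 190 and 213 (log2 -1.52 ± 0.35, SE, adjusted p = 0.0494, limma). This call was lost without any single fish. Cholesterol transport protein star averaged 0.07 in late and 0.76 in early testes (adjusted p = 0.227), and cyp17a1, needed for androgens, -2.81 and -3.55 in late and early testes with overlap (adjusted p = 0.434). Sums of marker levels are weighted to the brightest probe, which for the Leydig markers was hsd3b1, while the difference of cyp17a1 had the other sign. On the linear scale, the 3 Leydig markers with a probe came to 3.6 to 6.05 times the 75th percentile in late and 9.51 to 13.7 times in early testes. The 2 Sertoli markers came to 16 to 22.1 times in late and 37.5 to 67.2 times in early testes, both groups apart, and the 2 red blood cell markers to 11.2 to 14.7 times in late and 17.4 to 44.9 times in early testes. The 4 germ cell markers came to 243 to 281 times in late and 212 to 314 times in early testes, with overlap. The brightest of them was ddx4, which was not called, while sycp3 was called higher. Sums of T cell markers were higher in late testes (0.0572 to 0.13, against 0.0263 to 0.0531), though not above background on every array. So were those of oocyte markers (0.598 to 1.3, against 0.112 to 0.199) and pituitary markers (2.27 to 4.18, against 0.713 to 2.05). The brightest probes of these 2 sums were gdf9 and fshb, of which fshb was not called (adjusted p = 0.146, limma). The difference of lhb had the other sign, at -1.15 (adjusted p = 0.314, limma). Sums for endothelium, smooth muscle, fibroblasts, B cells and adipose tissue overlapped between the groups. The part of these cell types in the falls was not tested.

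The largest called falls among named probes included bricd5, oatx, c1qtnf4, si:ch211-161h7.8, LOC106570863 (DNA-binding protein HU 2-like), LOC106601958 and LOC106606252 (both annotated as skeletal muscle actin alpha 1a), ap1s3, h1m, ttc33 and fahd2a. The actin LOC106606252 read 2.74, 3.51 and 2.20 in late fish 245, 211 and 202, and 5.50, 5.56 and 4.71 in early fish 184, 190 and 213 (log2 -2.44 ± 0.44, SE, adjusted p = 0.0197, limma). The other actin had almost the same values, and since salmon have many near-identical gene copies the 2 probes may read the same transcripts. Linker histone h1m, which in zebrafish is a maternal and germ cell form, read -2.35, -1.93 and -3.08 in late fish 245, 211 and 202, and 0.06, 0.14 and -0.54 in early fish 184, 190 and 213 (log2 -2.34 ± 0.40, adjusted p = 0.0162), the reverse of the H1.5-like gene. The falls of h1m, of both actins, ap1s3, LOC106570863 and si:ch211-161h7.8 were each called in 2 of the 6 fits without 1 fish, that of bricd5 in 1, of ttc33 in none, of oatx in 3, and of c1qtnf4 and fahd2a in 5.

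Calls among genes of immune cells and matrix depended on the scale, while no vessel or smooth muscle probe was called on any scale tried. With the 75th percentile none of 31 myeloid probes, 14 of blood vessels, 11 of smooth muscle and 7 of red blood cells was called by limma's adjusted p. At an unadjusted p under 0.05, 2 myeloid probes were higher and 8 lower, no vessel probe was higher and 1 lower, 1 muscle probe was higher and 2 lower, and no red blood cell probe was higher and 3 lower. Over all probes tested 16.1% were higher and 9.07% lower at that p. Of 58 extracellular matrix probes the protease mmp20b and the laminin chain lama3 were lower (log2 -1.98 ± 0.43 and -1.58 ± 0.33, adjusted p = 0.0405 and 0.0348). That was 3.45%, against 0.883% of all probes, and none was called higher. Each of these 2 calls held in 1 of the 6 fits without 1 fish. Of 26 probes of antigen presentation and antiviral defence the interferon-induced ifi44b was called lower (log2 -1.57 ± 0.36, adjusted p = 0.0475). That was 3.85%, against 0.883% of all probes, and the call held in none of the 6 fits without 1 fish. The median of this list was -0.74. There 12 probes had all late fish below all early fish (46.2%, against 14.1% of all probes), among them the peptide transporter tap2b, at 0.28, -0.25 and -1.12 in late fish 245, 211 and 202, and 2.57, 1.63 and 0.65 in early fish 184, 190 and 213 (adjusted p = 0.0842). Of 21 lymphoid probes the perforin prf1.3 was lower (log2 -1.88 ± 0.36, adjusted p = 0.0264) and 1 probe of gata3 was higher (2.84 ± 0.55, adjusted p = 0.0264). Each was 4.76% of the list, against 0.883% of all probes lower and 5.09% higher, so the share higher was near that of all probes. The prf1.3 call held in 1 and the gata3 call in 2 of the 6 fits without 1 fish. With median scaling the median of all probes was -0.27, and 1328 of all 32492 probes were called lower. Called lower then were 8 of 26 probes of antigen presentation, 7 of 21 lymphoid, 5 of 31 myeloid and 4 of 58 of the matrix.

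**Figure D4:**
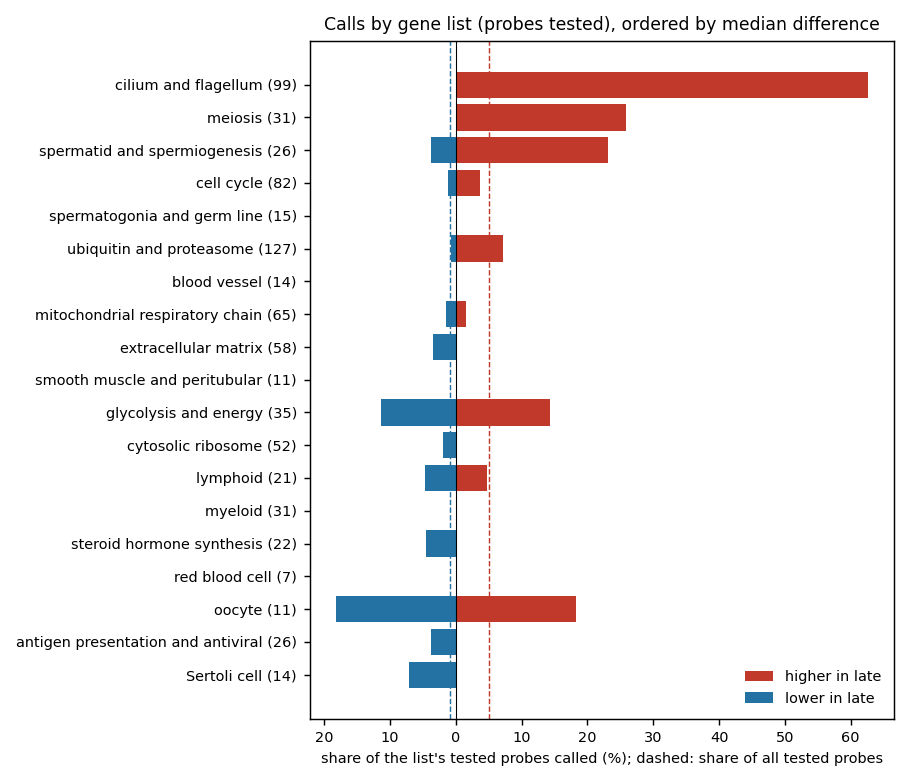
Share of the tested probes of each list that was called higher (red, to the right) or lower (blue, to the left) in late testes, in percent, with the number of probes tested in brackets and the lists ordered by median difference. Dashed lines mark the shares over all probes, 5.09% higher and 0.883% lower, and the cilium and flagellum list stands out at 62.6%.

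Of 11 oocyte probes gdf9 and zpax1 were called higher (18.2%, against 5.09% of all probes) and h1m and foxl2l lower (18.2%, against 0.883%), the last 2 being the calls already counted among spermatid and Sertoli cell genes. The median difference of this list was -0.61, against 0.14 for all probes. Its differences were above 0 for 4 probes and below 0 for 7, while 56.3% of all probes were above 0. In the 6 fits without 1 fish gdf9 was called in 5, zpax1 in 3 and foxl2l in 1. The growth factor gdf9, secreted by oocytes, read -1.01, -0.61 and 0.17 in late fish 245, 211 and 202, and -2.81, -4.67 and -4.15 in early fish 184, 190 and 213 (10.5-fold, log2 3.39 ± 0.55, SE, adjusted p = 0.0129, limma). Immature testes lay between -2.63 and -0.94, above all early fish, and their median of -1.65 was below all late fish. For zpax1, a gene of the egg envelope family, the rise was 2.20 ± 0.38 (adjusted p = 0.0165), with immature testes from -4.58 to 2.22.

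Called rises and falls were also set beside the 14 immature testes. These probes were chosen for a difference between late and early fish, which itself favours means beyond the immature range. No share over all probes was counted, so the numbers only describe the called probes. Of the 1653 probes that were higher in late testes, the late mean lay above every immature testis for 1479. The early mean of these probes was already above every immature testis for 523, within the immature range for 779, and below every immature testis for 351. The last kind included nkx31, a homeobox gene, at -0.83, -2.07 and -0.32 in late fish 245, 211 and 202, and -4.64, -7.29 and -8.44 in early fish 184, 190 and 213, against -2.54 to -1.09 in immature fish. Its early values thus lay below both other sets, though only 1 early array was well above background. Of the 287 probes that were lower in late testes, the late mean lay below every immature testis for 270. For these the early mean was below all immature testes for 137, within their range for 121 and above it for 29.

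In the same 6 fish the other tissues gave no calls in this comparison. In the pituitary 0 of 33263 probes were called by limma (0%; 556 or 1.67% at an unadjusted p under 0.05 with a difference beyond 0.8). In adipose tissue 0 of 32092 were called (0%; 1523 or 4.75% at the unadjusted p). The signal at the 75th percentile of the adipose arrays was 53.06 to 133.3 in late and 220.2 to 451.9 in early fish. Whether this bears on the adipose count was not tested. Another adipose array, from light group E and placed in neither group, also carries the label of fish 211. With scan batch as a block the adipose count was not 0, but only 1 late fish and 2 early fish of that tissue shared a batch. The difference between tissues was not tested.

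**Figure D5:**
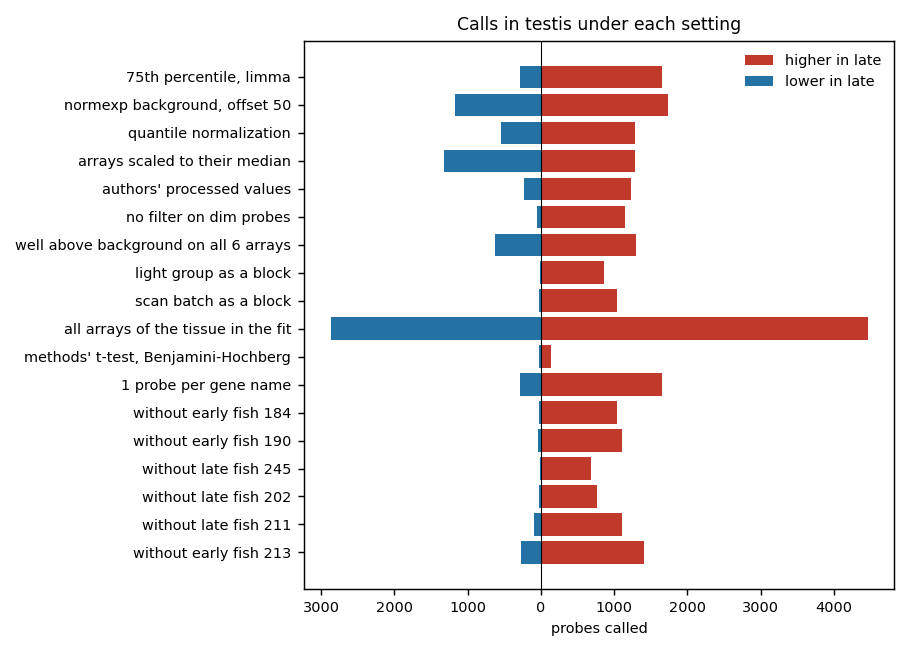
Number of probes called higher (red, to the right) and lower (blue, to the left) in late testes under each way of processing or testing drawn, which leave out the unadjusted tests and other log2 limits. In these settings rises number 132 to 4458 and falls 11 to 2870, with 11 falls without late fish 245 and 15 with light group as a block.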

How the data were processed

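Total RNA labelled with Cy3 was hybridised to one-colour Agilent arrays, 1 fish per array. The authors deposited scanner output from Agilent Feature Extraction 12.0.1.1, whose processed spot intensity is background-subtracted and not scaled between arrays, and a table of processed intensities of the same arrays, which for the 6 arrays used here gave correlations of 0.992 to 0.998 with the scanner output. How that table was scaled stays unknown. The median of the 6 arrays, in log2, lay between 5.21 and 6.58, and 4.3% to 34% of its values were missing. It served as an alternative.

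The log2 processed intensity minus the 75th percentile of its array was used, without control and outlier spots, with spots of 1 probe averaged. No spot was saturated. Probes well above background on at least 3 of the 6 arrays were fitted in R 4.3.3 by lmFit and eBayes of limma 3.58.1, two-sided, with Benjamini-Hochberg adjustment over all 32492 probes; called means adjusted p under 0.05 and more than 0.8 in log2, the limit of the study's methods. Where no array of a group was well above background, a fold is given as a lower limit: the other group's mean against, per array, the higher of the lowest signal among probes well above background and the probe's own. Fits were tested on simulated data. The number of arrays is a limit of the precision. The p-values rest on the spread between 3 fish per group, which limma draws toward the spread over all probes.

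Of 42386 probes, 25420 matched a gene of the RefSeq annotation of Ssal_v3.1 and 9010 had a symbol or a name from the study's supplementary annotation, of which only a shortened copy was used. The files state no genome build, so no position is given. Lists were matched by symbol, and symbols that matched by letters alone were removed. Named genes were the 12 largest called rises and falls without overlap, up to 4 called members per list and direction, and a set of symbols, with the brightest probe of a gene. Other named genes (among them dnah9, hydin, spef2, gata4, inhbab, tap2b and nkx31) were chosen after their values were seen. Members, lists and comparisons were chosen with earlier results of these data known. Some genes that these rules would name are not reported here. The comparison columns of the study's supplementary tables were not used.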

Additional observations from a re-analysis of the deposited data

How the results depend on the processing

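Against 1940 called probes in testis, the count was 1199 without a filter on dim probes, 873 with light group as a block, 1059 with scan batch as a block, 7328 with all 20 testis arrays in the fit (which takes the spread mostly from immature testes), 5846 by the methods' t-test without adjustment and 152 with it, and 8165 by limma without adjustment. Without 1 fish it ranged from 689 to 1680. The count stayed within 1.5 times under normexp (1739 higher, 1166 lower), quantile normalization (1284, 550), median scaling (1287, 1328), the authors' processed values (1233, 226), a filter of well above background on all 6 arrays (1305, 622), 1 probe per gene name, and a log2 limit of 1 or none. Without adjustment the pituitary had 355 calls by the t-test and 556 by limma, and adipose tissue 887 and 1523; adipose tissue had 843 with scan batch as a block, a fit that rests on the 1 late fish and 2 early fish that share a batch. In both tissues the count was 0 under each other alternative run, and without 1 fish it ranged from 0 to 0. Of the genes named, 4 changed sign under an alternative, none of them called: ddx4, at 0.003 after quantile normalization, ccdc40, at -0.009 with normexp, ift74, at -0.109 with median scaling, and dazl, at -0.099 after quantile normalization, -0.339 with median scaling, -0.233 with scan batch as a block, and -0.233 to 0.343 without 1 fish (-0.062 without late fish 245). The unadjusted limma fits were chosen after seeing the data. Slide as a block could not be fitted: each testis array was on its own slide, and in the other tissues the correlation could not be estimated. No paired analysis was possible because the labels give late and early fish no shared replicate numbers.

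The count of falls depended on which fish was left out, at 272 without early fish 213 and 90 or fewer without any other fish. Where probes were dim in a whole group, only lower limits of the fold can be given. The scale decides the balance of rises and falls. Late and early testes differed in GSI and in the most advanced cell of the study's histology, and overlapped in labelled stage. The causes of the shifts between settings were not tested.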

Other observations

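Among 127 ubiquitin and proteasome probes, 9 were higher in late testes (7.09%, against 5.09% of all probes) and 1 lower (0.787%, against 0.883%), with a median of -0.06. Called higher were rnf144ab, ube2r2, fbxo15, fbxl22, fbxl13, fbxo36b, fbxl9, fbxo36a and rnf32, a share near that of all probes. The 4 largest of these rises were of rnf32 by 4.12 ± 0.51 (SE, adjusted p = 0.00486, limma), fbxo36a by 3.16 ± 0.42, fbxo36b by 3.07 ± 0.41 and fbxl9 by 3.08 ± 0.59 on the log2 scale, of which that of fbxl9 was called in 2 of the 6 fits without 1 fish and the others in all 6. The level of fbxo36a was 3.99, 3.61 and 3.94 in late fish 245, 211 and 202, and 0.19, 0.35 and 1.55 in early fish 184, 190 and 213. Its paralogue fbxo36b read 1.75, 1.49 and 1.79 in the same late fish and -2.13, -1.33 and -0.72 in the early fish, and neither gene overlapped between the groups. The fall was of psmb12, a proteasome subunit gene of fish (-1.72 ± 0.37, adjusted p = 0.0392), a call lost without any single fish.

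No probe of a cytosolic ribosomal protein was called, though 51 of 52 probes of the list had a difference below 0, with a median of -0.36 against 0.14 for all probes and -0.77 against -0.27 with median scaling. Over all probes tested 56.3% of differences were above 0. Without 1 fish the median of the list ran from -0.68 without early fish 213 to -0.24 without early fish 184. All late fish lay below all early fish in 7 of 52 probes (13.5%, against 14.1% of all probes), and the median level of the list was 7.13, 7.29 and 7.72 in late fish 245, 211 and 202, and 8.31, 8.05 and 7.02 in early fish 184, 190 and 213. The 1 called probe was rps6ka1, a kinase of a ribosomal protein and not a ribosomal protein. In the mitochondrial respiratory chain list 46 of 65 differences were below 0, with a median of -0.26. There cox5b2 was called lower (-1.84, adjusted p = 0.0443, limma), or 1.54% against 0.883% of all probes. Called higher was cyb5d1, a cytochrome b5 domain protein outside the chain (4.34, adjusted p = 0.00216), or 1.54% against 5.09%. The call of cox5b2 held in 1 of the 6 fits without 1 fish, and that of cyb5d1 in all 6.

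In the study's own functional groups, only a shortened table was used. The cilia group had 25 of 37 probes higher (67.6%, against 5.09% of all probes) and none lower (against 0.883%), with a median of 1.72. This group was chosen by the study on these fish, so it is not independent evidence of the direction. In the groups of cell cycle, chromosome, DNA replication and DNA repair 15 of 202, 12 of 184, 4 of 58 and 1 of 30 probes were called higher (7.43%, 6.52%, 6.9% and 3.33%, against 5.09% of all probes). Called lower were 2, 2, 0 and 1 (0.99%, 1.09%, 0% and 3.33%, against 0.883% of all probes). With median scaling the cell cycle group had 6 of 202 higher and 14 lower, against 1287 and 1328 of all 32492 probes.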
